A study of Mus musculus with 10 samples.

Results

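Genes of DNA replication and mitosis were followed in mouse intestine through 39 members, picked by gene symbol as well-known genes of S phase (18 members) and of mitosis (21 members). All 39 were found once by symbol in each deposited table, out of 19456 genes listed in any library, and all 39 passed the filter on low counts. The tissue came from C57BL/6 mice in 4 groups: ITGB6 transgenic mice (TG) given dextran sulfate sodium (DSS) orally at 2.5% (2 libraries), wild-type mice (WT) given the same DSS (2 libraries), TG untreated (3 libraries) and WT untreated (3 libraries). DSS is a polymer that injures the colonic epithelium and is used to model colitis. ITGB6 is the beta subunit of the integrin that activates latent TGF-beta. The labels used here do not give the promoter of the transgene, the stretch of intestine, the age or sex of the mice, the length of DSS treatment, or whether each library is a different mouse. The tests therefore weigh differences against library-to-library spread, which may be technical.

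Intestinal epithelium is renewed from dividing cells in the crypts, and the same cells repair the lining after injury. The MCM helicase is loaded onto origins of replication before S phase. In S phase the genome is copied with PCNA as sliding clamp, and ribonucleotide reductase and thymidylate synthase supply nucleotides. In mitosis the cyclin-dependent kinase CDK1 and the Aurora and Polo kinases drive spindle assembly and chromosome segregation, until the anaphase-promoting complex (APC/C) degrades cyclins and ends the division. Genes of S phase are classically switched on by E2F factors, and many mitotic genes later, through a cell cycle homology region (CHR) and CCAAT boxes in their promoters. In bulk tissue, fewer dividing cells and less RNA per dividing cell cannot be told apart.

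Promoter letters use no expression value and differed between the 2 classes, most clearly in the CHR match. RefSeq windows from 250 bases before to 50 bases after the transcription start (GRCm38.p6) were at hand for 32 members, 15 of S phase and 17 mitotic. The motifs searched on both strands were E2F (TTTGGCGC, TTTCCCGC, TTTGCCGC or TTTCGCGC), CCAAT, and CHR (TTTGAA). An E2F match was present in 6 of 15 S-phase members (40.0%) and in 1 of 17 mitotic members (5.88%), beside 4.48% of the 11150 tested genes with a window. A CHR match was present in 13 of 17 mitotic members (76.5%) and in 1 of 15 S-phase members (6.67%), beside 15% of tested genes. The pair of CCAAT and CHR was held by 13 mitotic members and 1 S-phase member, Mcm2, beside 7.26% of tested genes. CCAAT alone did not separate the classes as far, with 15 of 17 mitotic and 8 of 15 S-phase members and 42.8% of tested genes.

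The stretches below run from 160 bases before the start to 30 bases after it, 5′ to 3′ on the gene's strand, and are shown because they carry these motifs in members described later. Motif matches are in capitals. Mcm5 (chr8:75109349-75109538, plus strand) and Mcm6 (chr1:128359676-128359865, minus strand) hold E2F matches, which overlap on opposite strands, together with CCAAT boxes. Rrm2 (chr12:24708094-24708283, plus strand), the S-phase member with the largest change after DSS, holds a CCAAT box and none of the 4 E2F spellings. Ccnb2 (chr9:70421525-70421714, minus strand), Cdc20 (chr4:118437314-118437503, minus strand) and Kif11 (chr19:37376222-37376411, plus strand) hold CCAAT boxes and a CHR near the start.
Mcm5: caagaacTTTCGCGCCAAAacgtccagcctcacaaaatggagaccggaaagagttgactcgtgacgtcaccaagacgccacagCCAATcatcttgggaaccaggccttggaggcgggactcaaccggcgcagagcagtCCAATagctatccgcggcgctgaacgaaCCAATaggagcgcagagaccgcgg
Mcm6: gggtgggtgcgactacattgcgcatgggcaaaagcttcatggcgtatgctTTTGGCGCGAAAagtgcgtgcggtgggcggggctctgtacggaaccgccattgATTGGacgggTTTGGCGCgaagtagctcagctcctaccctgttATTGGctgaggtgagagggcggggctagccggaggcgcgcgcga
Rrm2: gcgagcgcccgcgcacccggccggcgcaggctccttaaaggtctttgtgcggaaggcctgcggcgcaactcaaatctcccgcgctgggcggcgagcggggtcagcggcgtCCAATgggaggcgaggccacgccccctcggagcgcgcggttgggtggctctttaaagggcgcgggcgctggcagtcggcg
Ccnb2: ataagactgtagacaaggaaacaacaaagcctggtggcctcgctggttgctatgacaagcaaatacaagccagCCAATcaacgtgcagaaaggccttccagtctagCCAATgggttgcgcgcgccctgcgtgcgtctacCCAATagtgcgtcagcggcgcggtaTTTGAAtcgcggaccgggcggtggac
Cdc20: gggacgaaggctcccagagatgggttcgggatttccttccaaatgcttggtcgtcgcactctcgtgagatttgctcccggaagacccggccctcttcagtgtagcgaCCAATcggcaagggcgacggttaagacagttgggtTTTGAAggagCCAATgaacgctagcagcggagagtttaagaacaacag
Kif11: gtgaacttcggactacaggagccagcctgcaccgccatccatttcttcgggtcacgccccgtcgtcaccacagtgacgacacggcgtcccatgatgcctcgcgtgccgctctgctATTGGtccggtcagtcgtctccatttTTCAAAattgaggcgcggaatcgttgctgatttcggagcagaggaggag

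In Cdc20 the CHR began 18 bases before the start, between CCAAT boxes that began 53 and 8 bases before it. In Ccnb2 CCAAT boxes began 87, 54 and 21 bases before the start and a CHR began at base 5 of the transcript. In Kif11 the CCAAT box began 45 and the CHR 19 bases before the start, both on the opposite strand. A match describes letters and is not a shown binding site, and a window without a match says nothing about the factor.

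**Figure D1:**
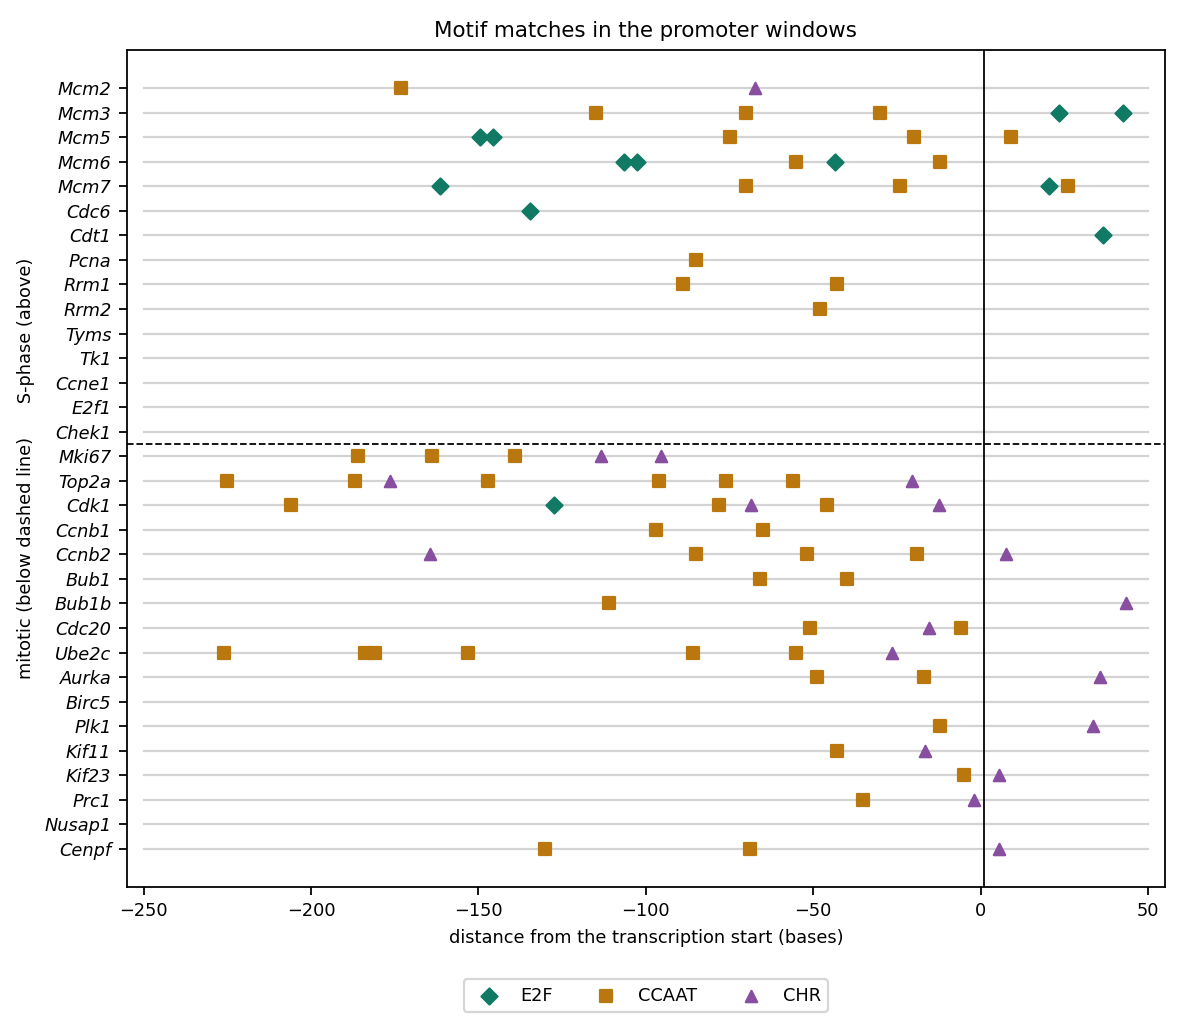
Positions of E2F (diamonds), CCAAT (squares) and CHR (triangles) matches in the promoter windows of the 32 members with a window (1 window a member), against distance from the transcription start in bases. E2F matches sit in 6 S-phase windows and 1 mitotic window, and CHR matches in 13 mitotic windows and 1 S-phase window.

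Each library held 15393859 to 18284704 expected counts over 16391 to 16949 listed genes. The human ITGB6 entry had 37587 to 65245 counts in the TG libraries and 2 to 21 in the WT libraries, so the genotype labels held in all 10. The tissue was mostly epithelial: 6 general epithelial markers summed to 13310 to 19010 CPM (counts scaled to the library's TMM-adjusted total). Sums were 74.4 to 422 CPM for 6 general leukocyte markers and 34.9 to 137.5 CPM for 8 fibroblast markers. For 6 smooth muscle markers they were 6.5 to 9.8 CPM. Summed levels of 9 myeloid markers were 36.8 to 57.4 CPM in the DSS libraries and 10.2 to 20.7 CPM in the untreated ones, and 6 of 9 were called higher in WT. Called lower in WT after DSS were 6 of 12 tested crypt stem cell, 6 of 12 colonocyte, 6 of 9 T cell, 3 of 6 general leukocyte and 5 of 5 erythrocyte markers, and 1 crypt stem cell marker was called higher. In TG untreated against WT untreated, 4 of 9 goblet cell and 3 of 8 fibroblast markers were called higher and 2 of 12 colonocyte markers lower. The part of these markers in the members' values was not tested. Xist stood at 307 to 739 CPM in the DSS libraries and at 0 to 0.417 CPM in the untreated ones, so in every comparison of DSS with untreated tissue, DSS and sex cannot be told apart. Of the libraries, 2 stood apart in the members. WT DSS 2 was higher than WT DSS 1 in all 39 members (median 2.37-fold) while the median of all tested genes differed by -0.03 on the log2 scale. TG untreated 1 was low in members of low GC content, as described below, and it lay below both other TG untreated libraries in 6 of 6 general leukocyte, 8 of 9 T cell, 7 of 8 fibroblast and 7 of 12 colonocyte markers, whose part in its values was not tested. Counts of members are also given with libraries left out, and medians of other replication and mitosis genes without WT DSS 2. Counts of cell type markers are given with all libraries only.

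The WT mice showed the one comparison in which members passed the test. In WT DSS against WT untreated, 29 of 39 members were higher at adjusted p under 0.05 (edgeR's quasi-likelihood test, Benjamini-Hochberg over 14072 genes) and none was lower, where 10.2% of all tested genes were called higher, 9.62% lower and 19.8% in either direction. All 21 mitotic members rose (were called higher), with a median log2 fold change of 1.58. Of the 18 S-phase members 8 rose, with a class median of 0.90 and all tested genes at 0.00. All 18 S-phase estimates were above 0, and 17 had unadjusted p under 0.05 in edgeR, beside 4733 of the 14072 tested genes. Both WT DSS libraries exceeded all 3 WT untreated libraries in 21 of 21 mitotic and 12 of 18 S-phase members, beside 28.4% of all tested genes. The S-phase members that rose were Mcm3, Mcm6, Mcm7, Pcna, Rrm1, Rrm2, Tyms and Tk1. The largest rise was that of Top2a, the topoisomerase that untangles sister chromatids (log2 fold change 1.82, SE 0.38, adjusted p = 0.00994), and the smallest among those called was that of Pcna (0.62, SE 0.19, adjusted p = 0.0426). The size of these rises rests on WT DSS 2: without it, 6 members were called (Rrm2, Ccna2, Birc5, Kif23, Prc1 and Tpx2), beside 6.71% of all genes called in either direction, and the medians were 0.77 for mitotic and 0.23 for S-phase members. Without WT DSS 1, 38 members were called, beside 18.6% of all genes. Without WT untreated 1, 2 or 3 the counts were 13, 13 and 16, beside 10.8%, 10.7% and 10.8%.

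**Figure D2:**
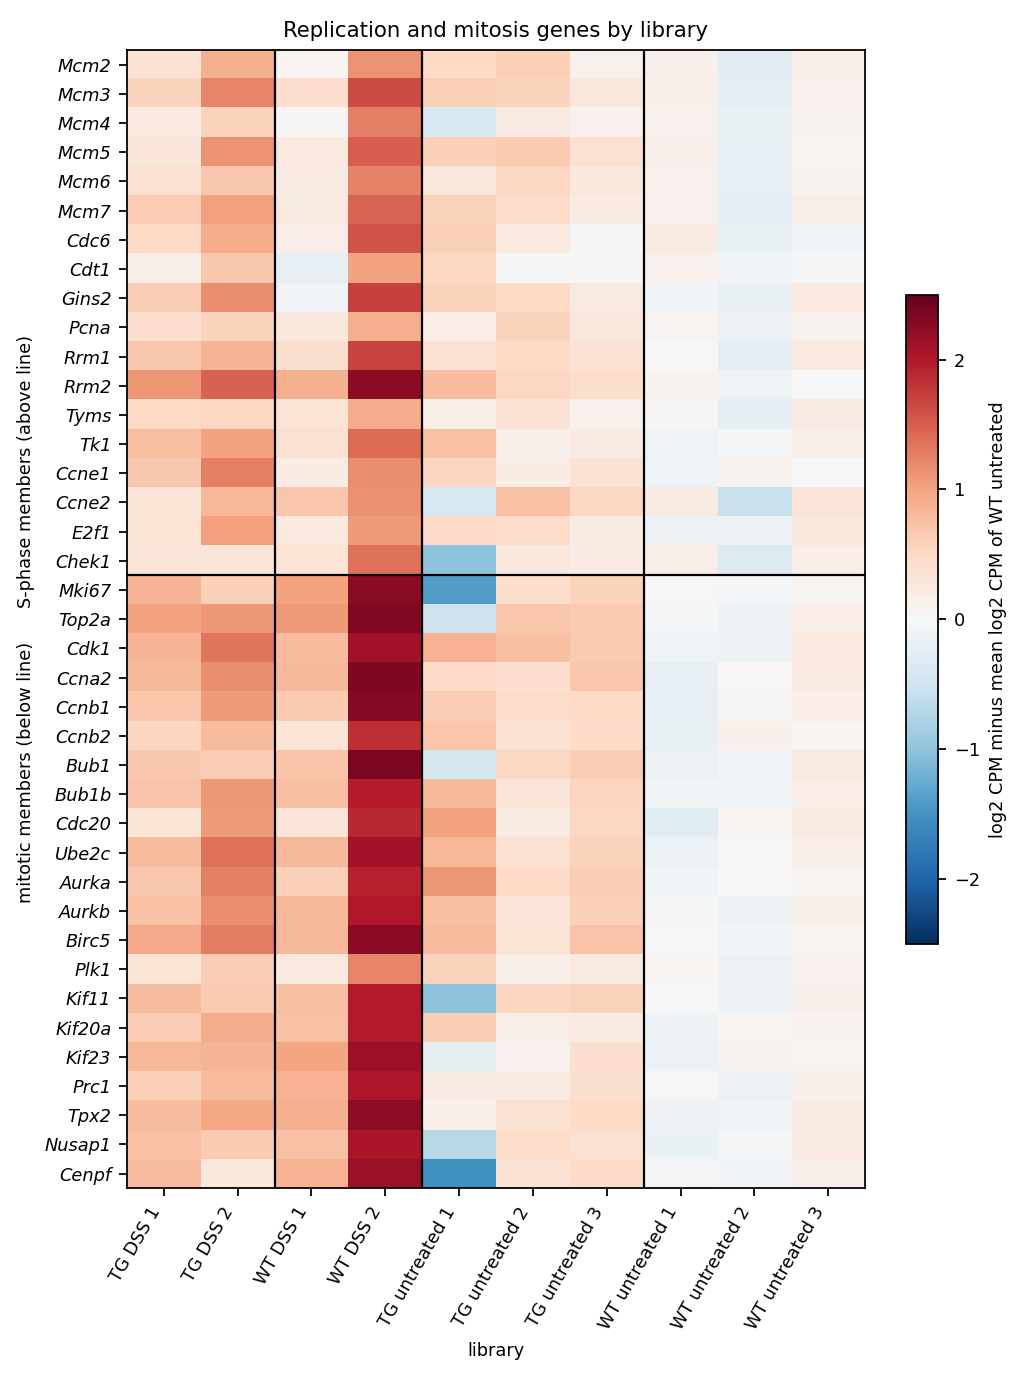
Level of each member in each library, as log2 CPM minus the mean log2 CPM of WT untreated (color), with libraries in columns and the 18 S-phase members above and the 21 mitotic members below the horizontal line. WT DSS 2 is the column with the highest values, and TG untreated 1 is low in Cenpf, Mki67, Kif11 and Chek1 while high in Cdc20 and Aurka.

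Of the 10 members that load, form or assist the replication fork, 4 rose in WT after DSS. Mcm3 (gene 17215, chr1:20802966-20820312), a subunit of the MCM helicase, stood at 41.7 and 66.3 CPM in TG DSS, 37.9 and 87.9 CPM in WT DSS, 43.2, 41.6 and 34.7 CPM in TG untreated, and 31.1, 24.0 and 30.8 CPM in WT untreated. Pcna (gene 18538, chr2:132249286-132253180), the sliding clamp, stood at 121.9 and 136.3 CPM in TG DSS, 109.5 and 172.6 CPM in WT DSS, 102.7, 134.5 and 110.7 CPM in TG untreated, and 96.2, 82.6 and 96.7 CPM in WT untreated. For both genes every WT DSS library exceeded every WT untreated library, and WT DSS 2 was the highest of the 10 libraries. The log2 fold change in WT was 1.13 for Mcm3 (SE 0.31, adjusted p = 0.0291). Mcm6 changed by 0.81 (adjusted p = 0.0453) and Mcm7 by 0.96 (adjusted p = 0.0432), while Mcm5, at 0.99, missed the threshold with adjusted p = 0.0548. Cdt1, which loads the MCM helicase and is then degraded, had the smallest estimate of the 39 (0.53, SE 0.31, adjusted p = 0.269). It stood at 18.6 CPM in WT DSS 1, below the 20.4 to 23.2 CPM of WT untreated, and at 43.4 CPM in WT DSS 2.

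All 4 nucleotide-supply members rose in WT after DSS. Rrm2 (gene 20135, chr12:24708254-24714146), the S-phase-limited small subunit of ribonucleotide reductase, stood at 29.6 and 38.1 CPM in TG DSS, 25.4 and 65.6 CPM in WT DSS, 23.5, 19.6 and 18.6 CPM in TG untreated, and 14.6, 12.7 and 13.8 CPM in WT untreated. Rrm1 (gene 20133, chr7:102441695-102469771), the large subunit, stood at 66.6 and 75.3 CPM in TG DSS, 55.5 and 135.0 CPM in WT DSS, 54.7, 58.8 and 53.9 CPM in TG untreated, and 41.7, 35.4 and 49.7 CPM in WT untreated. For Rrm2 only TG DSS and WT DSS overlapped among the pairs of groups compared, and its rise in WT was 1.73 on the log2 scale (SE 0.31, adjusted p = 0.00549). Rrm1 changed by 1.17 (SE 0.29, adjusted p = 0.0198). Tk1, the salvage kinase for thymidine, changed by 0.97 and Tyms, thymidylate synthase, by 0.65. A pseudogene of Tyms exists in mouse, and how reads were split between them was not checked.

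None of the 4 members that control entry into S phase passed the test, with estimates in WT of 0.69 to 0.92. Ccne1 (gene 12447, chr7:38097984-38107490) and Ccne2 (gene 12448, chr4:11190433-11204779) encode the cyclins that activate CDK2 at the start of S phase. Ccne1 stood at 10.4 and 15.5 CPM in TG DSS, 7.39 and 14.4 CPM in WT DSS, 9.42, 7.38 and 8.31 CPM in TG untreated, and 5.98, 6.90 and 6.52 CPM in WT untreated. Ccne2 stood at 5.16 and 7.32 CPM in TG DSS, 6.62 and 9.07 CPM in WT DSS, 3.10, 6.79 and 5.83 CPM in TG untreated, and 4.81, 2.80 and 5.11 CPM in WT untreated. Ccne1 was the S-phase member whose highest library was TG DSS 2 and not WT DSS 2. The adjusted p in WT was 0.0825 for Ccne1 and 0.106 for Ccne2, and both genes were low in every library.

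The cyclins and kinase of mitosis rose together, 4 of 4. Ccna2 (gene 12428, chr3:36564865-36573038), the cyclin of late S and G2 phase, stood at 74.3 and 95.3 CPM in TG DSS, 74.3 and 214 CPM in WT DSS, 59.0, 56.6 and 68.6 CPM in TG untreated, and 36.7, 42.7 and 49.2 CPM in WT untreated. Cdk1 (gene 12534, chr10:69335146-69352912), the kinase that starts mitosis, stood at 32.5 and 45.9 CPM in TG DSS, 31.3 and 77.8 CPM in WT DSS, 33.1, 30.7 and 28.5 CPM in TG untreated, and 16.8, 16.7 and 21.4 CPM in WT untreated. For both genes the WT untreated libraries were the lowest 3 of the 10. The rise in WT was 1.75 for Ccna2 (SE 0.34, adjusted p = 0.00733) and 1.58 for Cdk1 (SE 0.31, adjusted p = 0.00790), and the mitotic cyclins Ccnb1 and Ccnb2 rose by 1.69 and 1.27. For Cdk1 the TG untreated libraries lay near WT DSS 1.

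The 4 checkpoint and APC/C members also rose. Ube2c (gene 68612, chr2:164769929-164772902), the ubiquitin-conjugating enzyme of the APC/C, stood at 52.3 and 76.9 CPM in TG DSS, 52.7 and 129 CPM in WT DSS, 53.6, 39.3 and 44.98 CPM in TG untreated, and 27.2, 30.4 and 33.0 CPM in WT untreated. Bub1b (gene 12236, chr2:118598202-118641592), a spindle checkpoint protein, stood at 33.3 and 43.2 CPM in TG DSS, 34.6 and 80.2 CPM in WT DSS, 35.6, 25.6 and 29.6 CPM in TG untreated, and 19.5, 19.0 and 23.0 CPM in WT untreated. WT untreated was again the lowest group in both, without overlap with any other. The rise in WT was 1.59 for Ube2c (SE 0.31, adjusted p = 0.00790) and 1.48 for Bub1b (SE 0.29, adjusted p = 0.00811). Cdc20, the APC/C activator, rose by 1.29 (adjusted p = 0.0454), and Bub1, the checkpoint kinase, by 1.76 (adjusted p = 0.0172).

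Of the mitotic kinases and their partner, all 4 rose. Birc5 (gene 11799, chr11:117849237-117855743), survivin, the chromosomal passenger protein that holds Aurora B at centromeres, stood at 33.3 and 42.0 CPM in TG DSS, 30.7 and 82.6 CPM in WT DSS, 29.9, 21.9 and 28.2 CPM in TG untreated, and 17.3, 16.5 and 18.3 CPM in WT untreated. Aurkb (gene 20877, chr11:69045624-69051664), Aurora B itself, stood at 26.7 and 35.8 CPM in TG DSS, 28.2 and 64.1 CPM in WT DSS, 26.8, 19.7 and 24.3 CPM in TG untreated, and 15.6, 14.7 and 17.8 CPM in WT untreated. The 2 partners kept the same order of libraries at the top, WT DSS 2 and then TG DSS 2. The rise in WT was 1.71 for Birc5 (SE 0.32, adjusted p = 0.00675) and 1.53 for Aurkb (SE 0.29, adjusted p = 0.00683). Plk1, the Polo kinase, had the smallest rise of the mitotic members (0.81, SE 0.24, adjusted p = 0.0405), and without WT DSS 2 its estimate was 0.25 (adjusted p = 0.530).

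All 7 members of the spindle and midzone rose, with estimates of 1.49 to 1.70. Kif23 (gene 71819, chr9:61917277-61946810), the kinesin of the midzone complex centralspindlin, stood at 39.7 and 40.6 CPM in TG DSS, 44.4 and 98.4 CPM in WT DSS, 18.9, 24.1 and 29.8 CPM in TG untreated, and 20.1, 23.8 and 23.4 CPM in WT untreated. Prc1 (gene 233406, chr7:80294445-80316259), which bundles midzone microtubules, stood at 30.8 and 34.8 CPM in TG DSS, 36.8 and 82.4 CPM in WT DSS, 23.0, 23.2 and 26.6 CPM in TG untreated, and 20.4, 18.3 and 22.2 CPM in WT untreated. In both genes every DSS library exceeded every untreated library of its genotype. The rise in WT was 1.67 for Kif23 (SE 0.28, adjusted p = 0.00429) and 1.55 for Prc1 (SE 0.26, adjusted p = 0.00429), the smallest adjusted p of the members. Without WT DSS 2 their estimates were 0.98 and 0.85 and both were still called, with Tpx2, the activator of Aurora A on the spindle.

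Both chromosome proteins rose. Top2a (gene 21973, chr11:98992947-99024199) stood at 142.6 and 150.0 CPM in TG DSS, 147 and 353 CPM in WT DSS, 49.1, 114 and 111 CPM in TG untreated, and 68.7, 64.7 and 79.5 CPM in WT untreated. Mki67 (gene 17345, chr7:135689784-135716450), the Ki-67 protein that coats mitotic chromosomes, stood at 210.3 and 176 CPM in TG DSS, 236 and 559 CPM in WT DSS, 44.4, 159 and 174 CPM in TG untreated, and 116, 113 and 123 CPM in WT untreated. TG untreated 1 was the lowest of the 10 libraries in both, while the other untreated TG libraries lay above all untreated WT ones. The rise of Mki67 in WT was 1.76 (SE 0.48, adjusted p = 0.0288), and without WT DSS 2 the estimate was 1.01 (adjusted p = 0.310).

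**Figure D3:**
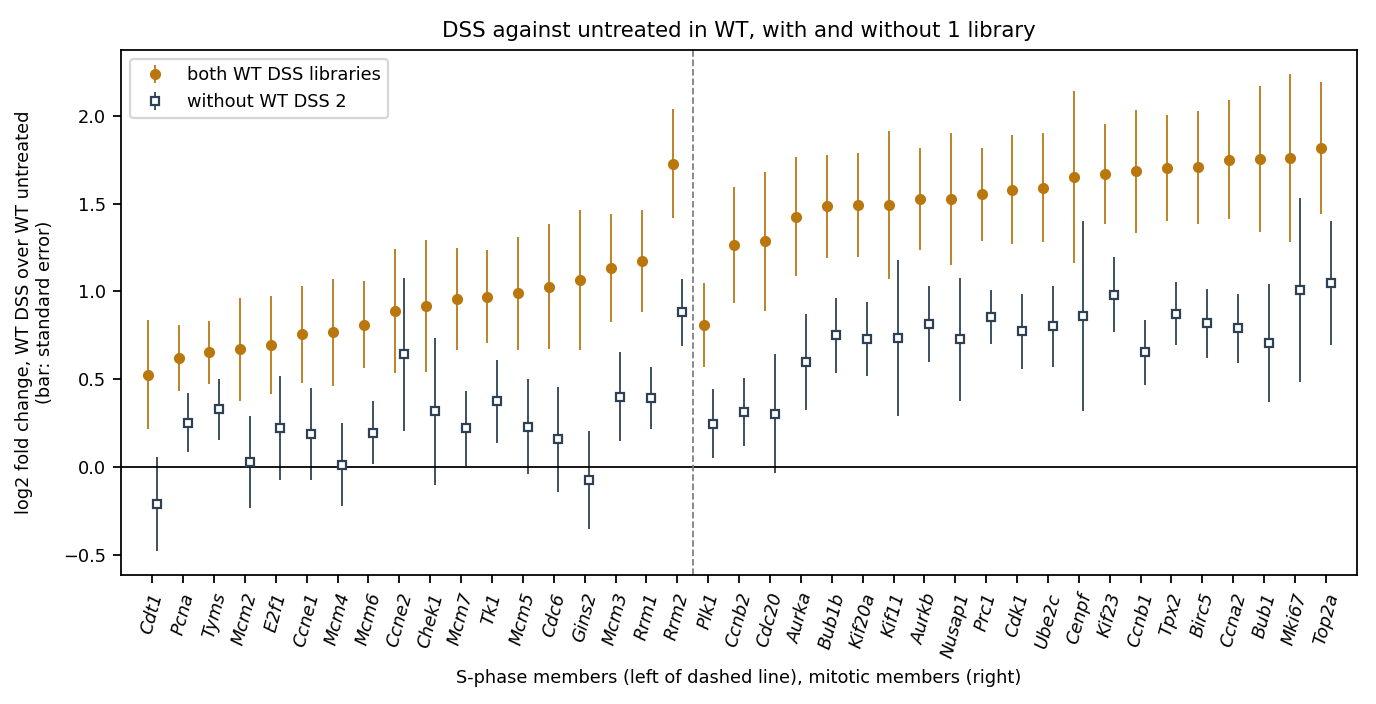
Log2 fold change of each member in WT DSS over WT untreated with its standard error, from both WT DSS libraries (filled circles) and without WT DSS 2 (open squares), with S-phase members left and mitotic members right of the dashed line. All 39 estimates lie above 0 with both libraries, and without WT DSS 2 the medians are 0.23 for S-phase and 0.77 for mitotic members, with Cdt1 and Gins2 below 0.

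WT DSS 2 was the highest library in every member but Ccne1, and markers of other kinds also differed between the WT DSS libraries. Summed CPM of 12 colonocyte markers was 11420 in WT DSS 2 and 16630 in WT DSS 1, with 10 of 12 lower in WT DSS 2. All 9 goblet cell markers (summed 13680 and 21960 CPM), all 6 general epithelial markers and all 6 general leukocyte markers (80.3 and 98.6 CPM) were lower in WT DSS 2 as well. Of 13 crypt stem cell markers 8 were higher in WT DSS 2 and 5 lower, with sums of 804 and 896 CPM. The part of these differences in the members' values was not tested. WT DSS 1 alone lay above all 3 WT untreated libraries in 21 of 21 mitotic members and in 12 of 18 S-phase members, where 38.6% of all tested genes did.

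S-phase and mitotic members were compared within each library by the mean log2 CPM of each class. The mitotic mean minus the S-phase mean was 0.56 and 0.37 in TG DSS, 0.81 and 1.05 in WT DSS, 0.19, 0.30 and 0.62 in TG untreated, and 0.17, 0.48 and 0.35 in WT untreated. Both WT DSS libraries lay above the other 8 libraries, and the pooled SD within groups was 0.18. The difference of group means was 0.60 for WT DSS against WT untreated, -0.46 for TG DSS against WT DSS, 0.10 for TG DSS against TG untreated and 0.04 for TG untreated against WT untreated. This balance depended on WT DSS 2 less than the levels did: without that library the WT difference was 0.47, and without WT DSS 1 it was 0.72. Leaving out Ccna2, Top2a and Mki67, which act before as well as in mitosis or through the whole cycle, gave 0.56. A correction for GC content and transcript length gave 0.56 too.

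**Figure D4:**
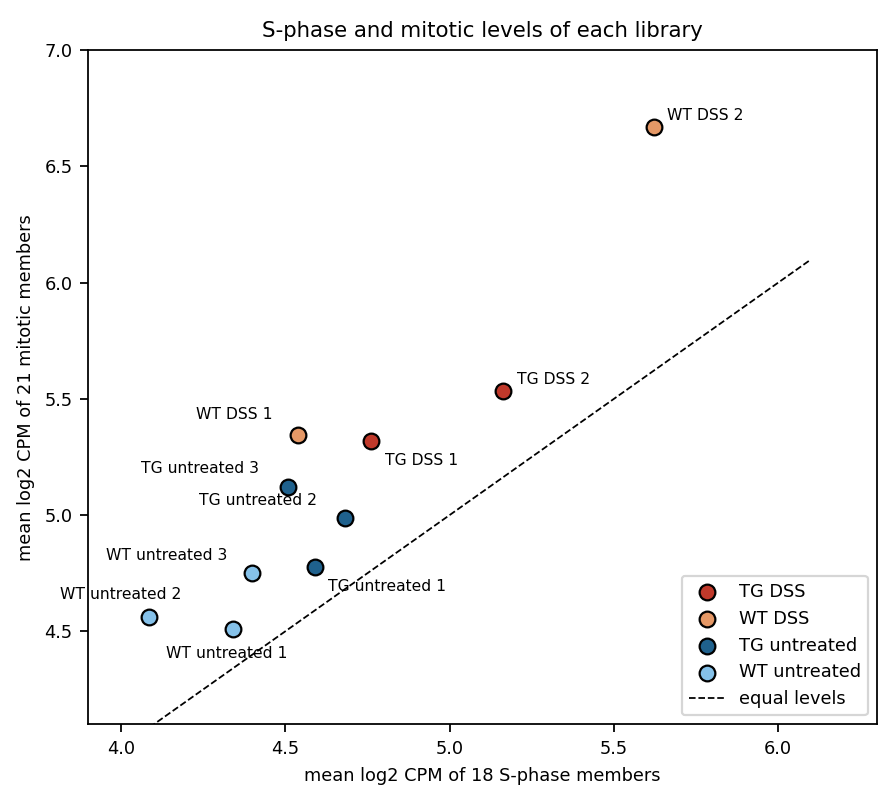
Mean log2 CPM of the 21 mitotic members against that of the 18 S-phase members, 1 point a library, colored by group, with the dashed line marking equal means. WT DSS 1 has the second-largest distance above the line (0.81) at an S-phase mean close to the TG untreated libraries, and WT DSS 2 (1.05) stands apart at the upper right.

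Between genotypes in untreated tissue no member passed the test. In TG untreated against WT untreated, 38 of 39 members had estimates above 0. Medians were 0.37 for S-phase and 0.36 for mitotic members and -0.02 for all tested genes. Still, 0 members were called by edgeR, 0 by DESeq2 and 0 by limma, and 2 had unadjusted p under 0.05 in edgeR (Cdk1 and Aurka). Of the 14072 tested genes 2919 did, a larger share than in the members. The unadjusted count of members depended on the fit, with 7 members in DESeq2 and 0 in limma. With only the 2 groups compared in edgeR it was 19, and 1 member was called, beside 3.76% of all genes. Of all tested genes 2.26% were called higher and 3.7% in either direction. Cdk1 had the smallest adjusted p (0.174, log2 fold change 0.75, SE 0.29), and its mean was 30.8 ± 2.28 CPM in TG untreated and 18.3 ± 2.67 CPM in WT untreated (SD, n = 3 each). Every TG library exceeded every WT library in 8 of 18 S-phase members and in 13 of 21 mitotic members, beside 16.7% of all tested genes. Cdk1 and Birc5 were called without WT DSS 2 and likewise without WT DSS 1, beside 4.62% of all genes in each fit, and 0 members were called without either TG DSS library.

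The 8 mitotic members that overlapped between genotypes did so through TG untreated 1. In TG untreated 2 and in TG untreated 3, all 21 mitotic members exceeded the highest WT untreated library, where 37.5% and 36.2% of all tested genes did. In TG untreated 1, 13 mitotic members did and 7 lay below the lowest WT untreated library. Of all tested genes 39.2% lay above and 41.6% below there, so the 7 were a smaller share than in all genes. Against the mean of the other TG untreated libraries, TG untreated 1 differed by -1.94 on the log2 scale for Cenpf, -1.90 for Mki67, -1.55 for Kif11 and -1.19 for Top2a, and by 0.62 for Cdc20. The differences ran with GC content: the median was -1.11 in 9 members under 45% GC, -0.11 in 15 members of 45 to 50% and 0.29 in 15 members of 50% or more. All tested genes showed medians of -0.72, -0.07 and 0.19 in the same bands. Across the 39 members Pearson's r with GC was 0.711, and across 13902 genes it was 0.532, both across genes of the same libraries, which are not independent replicates. Longer members were also lower in TG untreated 1 (Pearson's r of -0.687 with log2 length across the 39 and -0.172 across all tested genes). TG DSS 2 differed from TG DSS 1 along GC as well, with medians of -0.03, 0.29 and 0.55 in the same bands of members and Pearson's r of 0.607 across the members and 0.301 across all genes with a GC value. For WT DSS 2 against WT DSS 1 r was 0.059 across the members. Without TG untreated 1 and WT DSS 2 together, 10 members were called in TG untreated against WT untreated (Pcna, Rrm2, Mki67, Top2a, Cdk1, Ccna2, Bub1, Birc5, Kif11 and Tpx2), beside 11% of all genes, and with a correction for GC and length 0 were called.

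**Figure D5:**
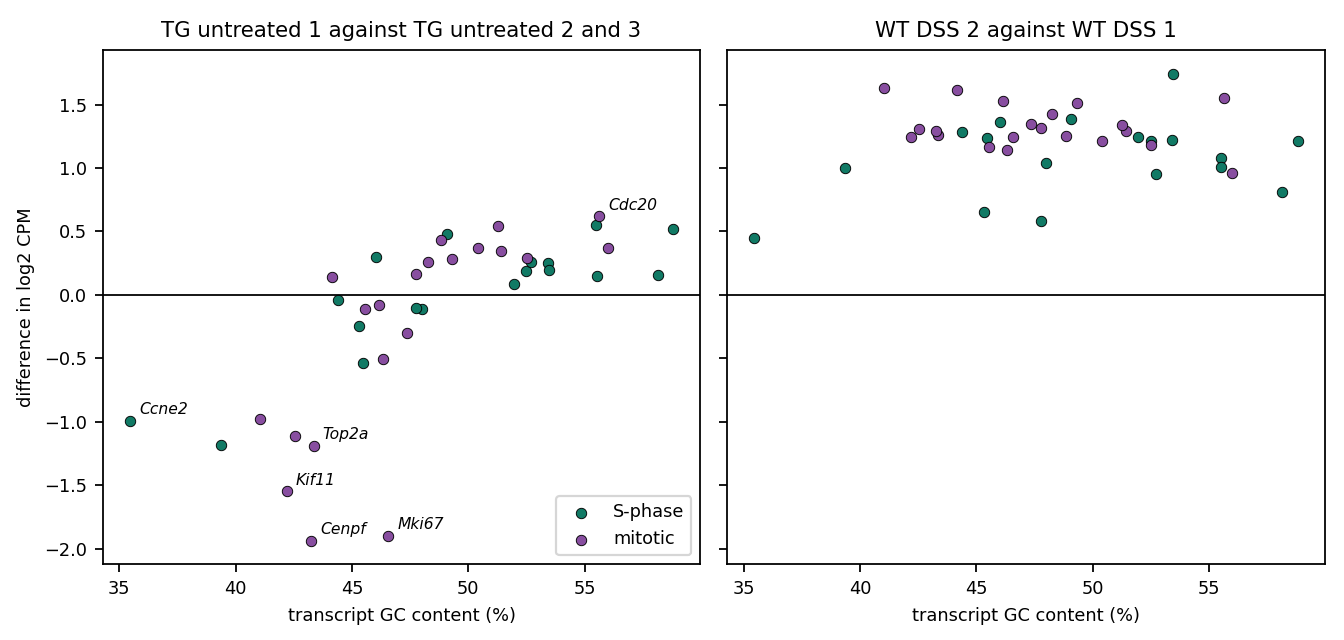
Difference in log2 CPM of each member between libraries of 1 group against the GC content of its transcript in percent, for TG untreated 1 against the mean of TG untreated 2 and 3 (left) and for WT DSS 2 against WT DSS 1 (right), with S-phase and mitotic members in separate colors. The left panel runs from -1.94 for Cenpf to 0.62 for Cdc20 along GC, and in the right panel all 39 members lie above 0 at every GC content.

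No member passed the test in TG mice after DSS. In TG DSS against TG untreated, 39 of 39 members had estimates above 0, with medians of 0.37 for S-phase and 0.44 for mitotic members and 0.01 for all genes, but 0 were called by edgeR, 0 by DESeq2 and 0 by limma, and 3 had unadjusted p under 0.05 in edgeR (Kif23, Rrm2 and Ccne1). Of all tested genes 3.33% were called higher, 2.15% lower and 5.48% in either direction. In edgeR 2826 of the 14072 tested genes had unadjusted p under 0.05, a larger share than in the members. Kif23 averaged 40.1 ± 0.642 CPM in TG DSS (SD, n = 2) and 24.3 ± 5.47 CPM in TG untreated (SD, n = 3), a log2 fold change of 0.73 (SE 0.29, adjusted p = 0.187). Rrm2 averaged 33.9 ± 6.03 CPM in TG DSS (SD, n = 2) and 20.6 ± 2.58 CPM in TG untreated (SD, n = 3), a log2 fold change of 0.72 (SE 0.31, adjusted p = 0.230). The groups did not overlap in 9 of 18 S-phase and 12 of 21 mitotic members, with TG DSS higher in each, beside 19.1% of all tested genes higher and 16% lower. Rrm2 and Kif23 were called without WT DSS 2 and without WT DSS 1, beside 6.41% and 6.45% of all genes, and 12 members without both TG untreated 1 and WT DSS 2, beside 18.5% of all genes.

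TG DSS against WT DSS gave estimates below 0 for 37 of 39 members, with medians of -0.77 for mitotic and -0.19 for S-phase members, and 0 members were called by edgeR, DESeq2 or limma. Of all tested genes 0.00711% were called lower and 0.185% in either direction. The 4 members with unadjusted p under 0.05 were Prc1, Kif23, Tpx2 and Bub1. Of the 14072 tested genes 1578 had such p, a share near that of the members. Prc1 averaged 32.8 ± 2.88 CPM in TG DSS and 59.6 ± 32.3 CPM in WT DSS (SD, n = 2 each), a log2 fold change of -0.86 (SE 0.29, adjusted p = 0.301). Both TG DSS libraries lay below both WT DSS libraries in 6 mitotic members and 1 S-phase member, beside 21.2% of all tested genes, and no member lay higher without overlap, beside 22%. The direction rests on WT DSS 2: without it the medians were 0.15 for mitotic and 0.50 for S-phase members, above 0 in both classes, and without WT DSS 1 8 members were called lower, beside 0.928% of all genes called in either direction.

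The genotype by DSS interaction asks whether DSS changed a member differently in TG and WT. All 39 estimates were below 0, with medians of -1.13 for mitotic and -0.53 for S-phase members and 0.00 for all tested genes, and 0 members were called by edgeR, DESeq2 or limma. Of all tested genes 0.32% were called lower and 0.846% in either direction. Unadjusted p was under 0.05 in 15 members, 14 of them mitotic, beside 1703 of the 14072 tested genes. The S-phase members, at 1 of 18, held a smaller share than all tested genes. Prc1 had the smallest adjusted p (0.267, estimate -1.12, SE 0.38), and Cdk1 was estimated at -1.23 (SE 0.44, adjusted p = 0.302). Without WT DSS 2 the medians were -0.33 and 0.09 with 0 members called, and without WT DSS 1 17 members were called, beside 2.94% of all genes. The interaction shares its WT libraries with the comparisons above, so the values are not separate evidence.

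Other genes of the same pathways followed the members in WT. Of 38 tested genes in a list of other mitosis genes, 33 rose in WT DSS against WT untreated and 0 fell. The list median was 1.44, and 10.2% of all tested genes were called higher. Without WT DSS 2 the median of the 38 was 0.61. Among the 33, Ndc80, the kinetochore's microtubule anchor, rose by 2.27 with both WT DSS libraries (SE 0.38, adjusted p = 0.00380). Incenp, the scaffold of the chromosomal passenger complex, rose by 1.70 (adjusted p = 0.00290). Melk, a kinase of dividing cells, rose by 1.68 (adjusted p = 0.00526). Without WT DSS 2 the estimates of these 3 were 1.35, 1.03 and 0.94. Of 34 other replication genes 14 rose and 0 fell, with a median of 0.82, beside the same 10.2% of all tested genes. The smallest p-values were those of Asf1b, a histone chaperone (1.497), Clspn, the checkpoint mediator claspin (1.36), and Fen1, the flap endonuclease of Okazaki fragments (1.33). Without WT DSS 2 edgeR called 0 of the 34 and 6 had unadjusted p under 0.05, with a median of 0.25 and estimates of 0.74, 0.72 and 0.64 for these 3 genes. In each of the other 4 comparisons edgeR called 0 genes of either list. At unadjusted p under 0.05 it counted 8 replication and 19 mitosis genes in the interaction, 4 and 2 in TG DSS against TG untreated, 1 and 11 in TG DSS against WT DSS, and 3 and 1 in TG untreated against WT untreated. In the same order 1703, 2826, 1578 and 2919 of the 14072 tested genes did. The list share was above that of all genes for both lists in the interaction and for mitosis genes in TG DSS against WT DSS. Elsewhere it was below.

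Of 7 G1 cyclins and kinases, Ccnd1 and Ccnd2 rose in WT after DSS and Cdk6, a kinase partner of cyclin D, fell. Of all tested genes 10.2% were called higher and 9.62% lower there. Ccnd1, cyclin D1, stood at 197 and 239 CPM in TG DSS, 219 and 230 CPM in WT DSS, 149, 123 and 120.0 CPM in TG untreated, and 91.2, 77.5 and 76.3 CPM in WT untreated. Its groups did not overlap between genotypes in untreated tissue or between DSS and untreated tissue in either genotype, and its WT estimate was 1.42 without WT DSS 2 (adjusted p = 0.00185). It was 1.46 higher on the log2 scale in WT DSS than in WT untreated (SE 0.14, adjusted p = 0.000178), 0.74 higher in TG DSS than in TG untreated (SE 0.14, adjusted p = 0.0126) and 0.68 higher in TG untreated than in WT untreated (SE 0.12, adjusted p = 0.0207). The interaction for Ccnd1 was -0.72 and was not called (adjusted p = 0.149). Cdk6 fell by 0.68 in WT (adjusted p = 0.00966) and by 0.61 in TG (adjusted p = 0.0323). The Cdk6 call was kept in 22 of 23 alternatives in WT and in 11 of 23 in TG.

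Of 17 tested cell cycle brakes, 3 fell and 1 rose in WT after DSS, 4 of 17 in either direction beside 19.8% of all tested genes, so the count says little about brakes as a list. Cdkn1a, the p21 inhibitor of cyclin-dependent kinases, stood at 195 and 189 CPM in TG DSS, 225 and 145 CPM in WT DSS, 335, 282 and 330.0 CPM in TG untreated, and 375, 397 and 327 CPM in WT untreated. Every DSS library lay below every untreated library, and Cdkn1a fell by 0.99 in WT (SE 0.18, adjusted p = 0.00587) and by 0.72 in TG (SE 0.18, adjusted p = 0.0462). Btg1, an antiproliferative factor, fell by 0.82 and Rbl2, the pocket protein p130, by 0.44 in WT, and Cdkn2c, an inhibitor of CDK4 and CDK6 that is named here after its value was seen, rose by 0.96. The rise of Cdkn2c rests on WT DSS 2: it stood at 13.8 and 28.4 CPM in WT DSS against 10.03, 9.76 and 12.8 CPM in WT untreated, and without that library the estimate was 0.35 (adjusted p = 0.524). In TG Cdkn1c, the p57 inhibitor, rose by 1.16 (SE 0.21, adjusted p = 0.0116), at 13.5 and 14.9 CPM in TG DSS against 4.77, 8.27 and 6.08 CPM in TG untreated. In WT the estimate for Cdkn1c was 0.26 (adjusted p = 0.437), and the interaction, 0.89, was not called (adjusted p = 0.263).

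Of 14 cell cycle transcription factors, 6 rose in WT after DSS, beside 10.2% of all tested genes called higher. The largest change was in E2f2, an activating E2F. E2f2 stood at 42.0 and 39.6 CPM in TG DSS, 52.7 and 80.9 CPM in WT DSS, 36.6, 25.5 and 32.9 CPM in TG untreated, and 19.6, 17.1 and 16.1 CPM in WT untreated. Its WT untreated libraries were the lowest and its WT DSS libraries the highest, with both TG groups between them. E2f2 rose by 1.92 in WT (SE 0.20, adjusted p = 0.000277) and was 0.85 higher in TG untreated than in WT untreated (SE 0.18, adjusted p = 0.0344; a call kept in 10 of 23 alternatives), and its interaction was -1.56 (SE 0.29, adjusted p = 0.0395). The repressive factors E2f7 and E2f8, which are themselves made in S phase, rose by 1.55 and 1.49 in WT, and without WT DSS 2 their estimates were 0.91 each and not called. Without that library E2f2 was the 1 factor of the 14 still called. E2f1, a member, did not pass in any comparison.

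Compared between genes on the scale of FPKM (fragments scaled to transcript length and library size), Pcna had the highest mean over the 10 libraries of the members and Chek1, the S-phase checkpoint kinase, the lowest. The FPKM of Pcna was 98.1 ± 5.54 in TG DSS, 114 ± 40.3 in WT DSS (SD, n = 2 each), 92.2 ± 15.7 in TG untreated and 77.0 ± 6.87 in WT untreated (SD, n = 3 each). In WT untreated, Ube2c followed at 34.7 ± 3.72 FPKM and Plk1 at 27.4 ± 2.63 FPKM, next to Mcm6 at 20.7 ± 2.40 FPKM and Mcm7 at 20.6 ± 2.94 FPKM. Mcm6 and Mcm7 did not differ beyond their spread. The RefSeq spans of 11 members overlap another listed gene, 8 of them among the 29 called in WT, with Prc1 and Rccd1 sharing 21669 bases and Ccna2 and Exosc9 863. These spans include introns, and overlap of exons was not checked. Whether the authors counted by strand is not given in the sources used here, and how reads of such pairs were split was not tested.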

How the data were processed

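Poly-A RNA-seq of mouse intestine gave 10 deposited tables, 1 a library. Per the file headers, each table holds the authors' expected counts per gene and, in a column beside them, the authors' FPKM. RSEM 1.2.12, Bowtie2 2.2.5, HISAT2 2.0.4 and the mm10 build are listed in the submitters' processing notes, without their roles. Groups came from the sample labels. The members and gene lists were chosen with earlier results of these data known.

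Expected counts, rounded to whole numbers, were fitted with edgeR 4.0.16 (R 4.3.3): quasi-likelihood F test, 4 group means over all 10 libraries, TMM scaling, filterByExpr (count minimum 10, total 15; 14072 genes), and Benjamini-Hochberg adjustment with a threshold of 0.05. Adjusted p-values are from this fit unless an omitted library or another tool is named, and standard errors were obtained from each estimate and its F statistic. CPM uses TMM scaling, and log2 CPM a prior count of 2. All 39 members could be named. Library values were given for the members of each role group with the smallest p in WT, up to 2 a group, and up to 3 called genes a list were named per comparison. DESeq2 1.42.0 and limma 3.58.1 (on log2(FPKM + 1)), other scalings and filters, omitted libraries and a GC and length correction were the alternatives. The test was checked on simulated counts.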

Additional observations from a re-analysis of the deposited data

Results flagged for a closer look

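E2f2, an activating E2F factor outside the 39 members, was called in the genotype by DSS interaction, at -1.56 on the log2 scale (edgeR, adjusted p = 0.0395). DSS and sex cannot be told apart in this estimate. E2f2 stood at 42.0 and 39.6 CPM in TG DSS and 52.7 and 80.9 CPM in WT DSS. In untreated tissue it stood at 36.6, 25.5 and 32.9 CPM in TG and 19.6, 17.1 and 16.1 CPM in WT. Every WT DSS library lay above every TG DSS library, and every TG untreated library above every WT untreated one. The call held under 13 of 22 alternatives and was lost without WT DSS 2 (-1.22, adjusted p = 0.0942). Over the alternatives the adjusted p ran from 0.000141 with DESeq2 to 0.185 with edgeR without TG DSS 1.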

How the results depend on the processing

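The rise in WT after DSS kept its direction in every called member and alternative. The number of members called, 29, was 18 with the replicate block, 14 with limma and 1 added to FPKM, 14 with 0.1 added, and 11 with 1 added and no filter. In the same order 11.5%, 20.8%, 20.4% and 12.4% of all genes were called in either direction. Omitting 1 library gave 6 to 38, and 6 members were called in every such fit. Among the other comparisons, TG untreated against WT untreated gave 1 with only the groups compared and 0 to 2 with 1 library omitted; TG DSS against WT DSS gave 0 to 8, TG DSS against TG untreated 0 to 2, and the interaction 0 to 17. Without both TG untreated 1 and WT DSS 2, an alternative chosen after seeing the data, as was the GC and length correction, the counts were 18 in WT DSS against WT untreated, 10 in TG untreated against WT untreated, 12 in TG DSS against TG untreated and 1 in the interaction. The cause of these shifts was not tested. A group left with 1 library was assumed to vary like the others. Replicate numbers did not pair the libraries (correlations of deviations from -0.29 to 0.206), and all 18 members called with the block were among the 29. The group contrasts of mitotic minus S-phase level moved by less than the spread between libraries (SD 0.18) in every alternative run, while the level itself was 0.51 and 0.75 in WT DSS without Ccna2, Top2a and Mki67.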
